A study of Mus musculus with 6 samples.

Results

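The immediate early genes described here are 10 genes, Fos, Fosb, Fosl2, Jun, Junb, Jund, Egr1, Ier2, Atf3 and Dusp1, chosen by name from the 14861 genes of the deposited table. All 10 had a row and all 10 passed the filter on low values. RNA was sequenced from the inguinal white fat, a subcutaneous depot in the groin, of 3 Flox mice and 3 AdIGF1RKO mice. Both groups carried the floxed Igf1r gene from the strain B6;129-Igf1rtm2Arge/J, in which Cre recombinase can delete part of the gene for the insulin-like growth factor 1 receptor. The AdIGF1RKO mice also carried Cre under the adiponectin (Adipoq) promoter, which is active in adipocytes and not in the other cells of the fat pad. The controls were floxed littermates, and all mice were kept for 24 weeks on chow in which fat supplied 10% of the energy. Food was withdrawn overnight before dissection. The labels number the mice of each group 1 to 3, and nothing in them says whether a number marks a shared litter or day. Age and sex are not in the labels used here.

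Immediate early genes are transcribed within minutes of a stimulus, before any new protein is made, and their mRNAs are usually short-lived. They respond to growth factors such as insulin and IGF-1, to hormones and to cell stress, through MAP kinases that act on the serum response factor and on the cyclic AMP response element binding protein, CREB. Fos and Jun proteins pair through leucine zippers to form the transcription factor AP-1, which in turn switches on later genes. Fosl2 and Jund are known as the more constantly expressed members of their families, while Fos, Fosb and Egr1 are known for brief bursts.

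The promoter sequences below are shown because Fos, Fosb, Junb and Dusp1 went up and down together across the 6 libraries, while Fosl2 varied little. Between pairs of Fos, Fosb, Junb and Dusp1 the Pearson correlations of log2 levels ran from 0.69 to 0.99. Each is the 250 bases before the gene's start in RefSeq (build GRCm38.p6, an earlier build than the GRCm39 named in the submitters' processing notes), written 5′ to 3′ on the gene's own strand. Capitals mark TGACG, the core of the CREB site, on either strand, including the full palindrome TGACGTCA.
Fos, chr12:85473640-85473889, plus strand: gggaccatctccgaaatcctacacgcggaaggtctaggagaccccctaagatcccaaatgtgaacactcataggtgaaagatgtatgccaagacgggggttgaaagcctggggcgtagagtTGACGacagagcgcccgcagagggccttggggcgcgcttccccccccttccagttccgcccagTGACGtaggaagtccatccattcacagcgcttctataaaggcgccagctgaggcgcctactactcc
Fosb, chr7:19310046-19310295, minus strand: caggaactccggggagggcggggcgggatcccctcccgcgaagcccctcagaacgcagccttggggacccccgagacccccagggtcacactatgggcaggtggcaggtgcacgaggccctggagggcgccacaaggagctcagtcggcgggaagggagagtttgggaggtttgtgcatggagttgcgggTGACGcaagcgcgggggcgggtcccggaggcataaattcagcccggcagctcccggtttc
Junb, chr8:84978749-84978998, minus strand: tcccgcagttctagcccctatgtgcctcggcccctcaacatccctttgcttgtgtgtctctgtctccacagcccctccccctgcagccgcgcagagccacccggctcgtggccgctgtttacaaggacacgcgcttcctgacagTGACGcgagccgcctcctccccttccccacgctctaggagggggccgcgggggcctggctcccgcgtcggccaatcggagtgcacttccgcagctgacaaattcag
Dusp1, chr17:26508473-26508722, minus strand: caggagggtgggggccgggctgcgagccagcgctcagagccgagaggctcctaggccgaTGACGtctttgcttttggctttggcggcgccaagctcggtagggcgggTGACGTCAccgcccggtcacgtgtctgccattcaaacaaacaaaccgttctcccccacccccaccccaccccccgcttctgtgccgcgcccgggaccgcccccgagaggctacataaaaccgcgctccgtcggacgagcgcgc
Fosl2, chr5:32136222-32136471, plus strand: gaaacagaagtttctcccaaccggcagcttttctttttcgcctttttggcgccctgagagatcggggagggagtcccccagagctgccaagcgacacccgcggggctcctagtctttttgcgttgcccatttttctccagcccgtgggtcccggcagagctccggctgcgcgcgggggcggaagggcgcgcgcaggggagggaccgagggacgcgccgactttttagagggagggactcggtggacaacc
Promoter windows of 8 of the 10 genes were searched, and none of Egr1 or Ier2. The search covered both strands of the full window of 300 bases, from 250 before to 50 after the start. TGACG was found in the windows of Fos, Fosb, Junb, Dusp1 and Atf3, against 20.8% of all 32851 promoter windows. It was not found in the windows of Fosl2, Jun and Jund. Atf3, whose sequence is not printed, did not follow Fos across the libraries (Pearson correlation 0.38). In Fos the motif lay at bases -129 to -125 and -66 to -62 from the start, and in Fosb at -60 to -56. The palindrome TGACGTCA, which contains TGACG on both strands, was found in Dusp1 alone among the 8, at -143 to -136, against 1.79% of all windows. The CArG box, to which serum response factor binds, and the AP-1 motif TGANTCA were in none of the 8 windows, against 1.63% and 7.81% of all windows. These are matches of exact letters within the window. Sites farther away, sites spelled otherwise and the promoters of Egr1 and Ier2 were not searched. The absence of the CArG box and of TGANTCA covers these 8 windows only, and says nothing of Egr1 or Ier2. A match says nothing of binding.

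Read depth was between 60617147 and 70695527 reads per library over all genes. Values are given as scaled CPM, the reads of a gene per 1000000 reads after median-ratio scaling, and are not divided by gene length. A single read was worth between 0.013 and 0.0207 scaled CPM. Igf1r, the floxed gene, was the check of the labels. It had 6.44, 6.47 and 5.86 scaled CPM in Flox 1 to 3 and 6.11, 5.27 and 4.85 in AdIGF1RKO 1 to 3. The groups overlapped, so the check did not separate them. The tissue also holds cells without Cre, and the reason for the overlap was not tested. All 10 adipocyte markers were present, with a summed level between 47276 and 65242 scaled CPM. The libraries stood apart in skeletal muscle RNA: 14 muscle markers took 13.2% of the reads of Flox 3 and 4.77% of those of AdIGF1RKO 3, and between 0.0543% and 0.914% in the other 4.

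Between the genotypes, none of the 10 genes changed by the test used, and for none did the 3 AdIGF1RKO libraries lie wholly above or below the 3 Flox libraries. At an adjusted p under 0.05 limma called 0 of the 10, against 0% of all 12993 genes tested. At an unadjusted p under 0.05 it also found 0 of the 10, against 2.96% of all genes. The groups did not overlap for 8.27% of all genes. DESeq2, which called 0.177% of all genes, called 0 of the 10, and so did edgeR's quasi-likelihood test. The median log2 difference of the 10 genes, AdIGF1RKO minus Flox, was -0.02, as was the median over all genes tested. With array quality weights the median of the 10 was -0.24, against -0.000663 over all genes, and with a muscle covariate it was -0.21, against -0.01. Neither fit called any of the 10. In other fits an unadjusted p under 0.05 was reached by Fosb with array quality weights, without Flox 3 and without both libraries numbered 3, and by Atf3 with the replicate number as a block and by DESeq2. The adjusted limma p of each of the 10 genes was 0.998.

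**Figure D1:**
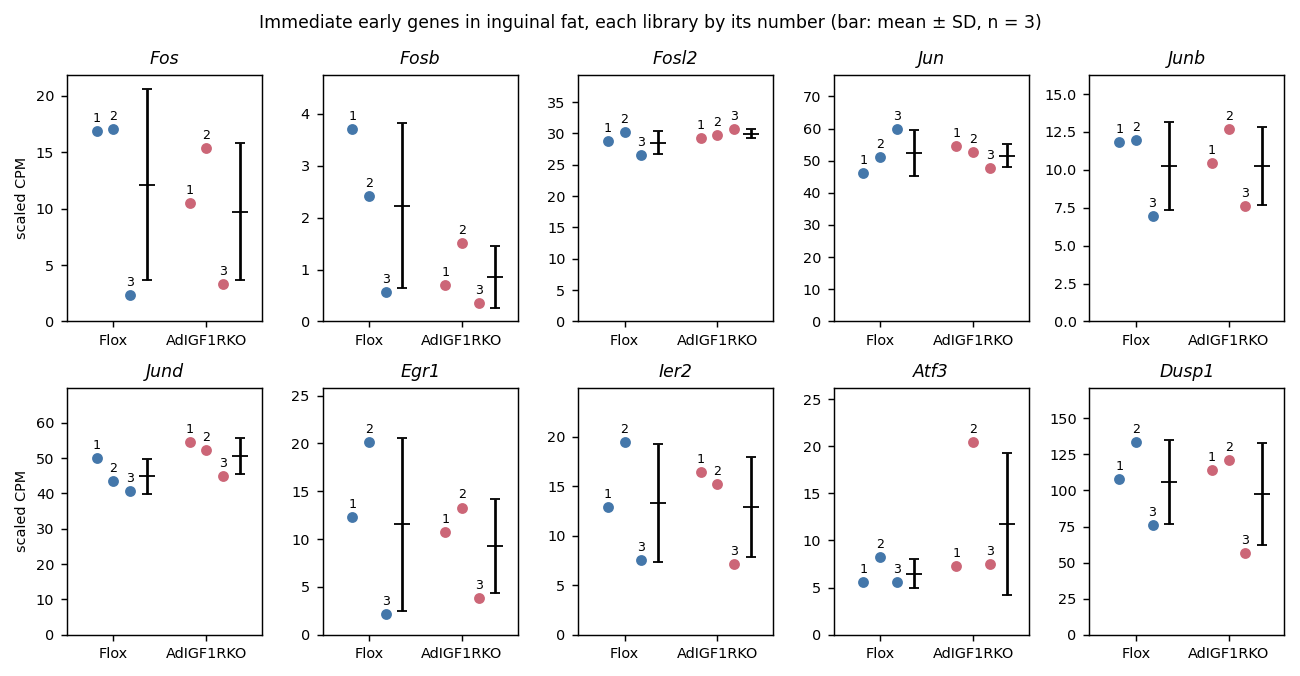
Level of each gene (vertical axis, scaled CPM, from 0) in the 3 Flox and 3 AdIGF1RKO libraries, each point marked with its library number, with the mean and SD (n = 3) beside it. Fos, Fosb, Junb, Egr1, Ier2 and Dusp1 were lowest in both libraries numbered 3, Atf3 stood out in AdIGF1RKO 2, and Fosl2, Jun and Jund kept a narrow range.

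Fos, which encodes the founding subunit of AP-1, had 16.9, 17.1 and 2.34 scaled CPM in Flox 1, 2 and 3 and 10.5, 15.4 and 3.32 in AdIGF1RKO 1, 2 and 3. Both libraries numbered 3 were low, whatever the genotype, and the groups overlapped. The means were 12.1 ± 8.47 in Flox and 9.73 ± 6.05 in AdIGF1RKO (SD, n = 3). The log2 difference, AdIGF1RKO minus Flox, was -0.14 (standard error 0.79, 95% interval from -2.03 to 1.76), an interval that reaches far to both sides of 0. The log2 difference was -0.58 with a muscle covariate and -0.95 with array quality weights, and passed in neither. The low values were well above counting error: Flox 3 had 113 Fos reads, with an exact Poisson 95% interval of 1.93 to 2.82 scaled CPM, and Flox 1 had 1198 reads, with an interval of 15.98 to 17.91. Such intervals cover counting error only.

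Fosb, which encodes a close relative of Fos, was the scarcest of the 10 genes per length of transcript. It had 3.72, 2.42 and 0.559 scaled CPM in Flox and 0.700, 1.51 and 0.347 in AdIGF1RKO, in the order of the library numbers. Flox 1 and Flox 2 were above all 3 AdIGF1RKO libraries, and Flox 3 lay among them. The means were 2.23 ± 1.59 and 0.853 ± 0.598 (SD, n = 3), at a ratio of 0.382, and the log2 difference was -0.71 (standard error 0.45). Fosb was lower in AdIGF1RKO than in the same-numbered Flox library in all 3 pairs, by log2 differences of -1.47, -0.45 and -0.21. The labels do not tie these pairs together, and Fosb did not pass the limma fit that keeps the numbers as blocks (adjusted p = 0.914). Without both libraries numbered 3 the log2 difference was -0.96 and did not pass limma (adjusted p = 0.998). When each library was left out in turn it ran from -1.16 without Flox 3 to -0.37 without Flox 1. It was -1.24 with array quality weights and -1.39 by both edgeR and DESeq2, and passed in none of these. These values rest on as few as 22 reads in AdIGF1RKO 3 and 27 in Flox 3, and at most 263 in Flox 1.

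Fosl2, which encodes the Fos relative Fra-2, varied least of the 10 genes. It had 28.8, 30.2 and 26.6 scaled CPM in Flox and 29.3, 29.8 and 30.8 in AdIGF1RKO. The highest library was 1.16 times the lowest, and the log2 difference of 0.07 had a 95% interval from -0.14 to 0.29. The contrast within the Fos family does not depend on how libraries are scaled, since it can be read as a ratio of reads within each library. There were 0.587, 0.567 and 0.0881 Fos reads per Fosl2 read in Flox 1, 2 and 3, and 0.359, 0.515 and 0.108 in AdIGF1RKO 1, 2 and 3. Both libraries numbered 3 thus had far less Fos for their Fosl2 than the other 4.

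Jun, which encodes the partner of Fos in AP-1, had 46.0, 51.2 and 59.99 scaled CPM in Flox and 54.4, 52.6 and 47.6 in AdIGF1RKO. Unlike Fos it was highest in Flox 3, and its highest library was 1.30 times its lowest. The means were 52.4 ± 7.06 and 51.5 ± 3.54 (SD, n = 3), and the log2 difference of -0.02 had a 95% interval from -0.31 to 0.28. Jund, the Jun relative known for steady expression, had 50.1, 43.6 and 40.6 scaled CPM in Flox and 54.6, 52.2 and 44.8 in AdIGF1RKO. Its AdIGF1RKO library was the higher in all 3 same-numbered pairs, which the labels do not tie together, by log2 differences of 0.12, 0.25 and 0.14. The group difference of 0.17 had a 95% interval from -0.12 to 0.46 and was 0.01 on the deposited scale, on which the median over all genes was -0.17.

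Junb, the Jun relative that is itself induced early, followed Fos and not Jun. It had 11.9, 12.0 and 6.94 scaled CPM in Flox and 10.4, 12.7 and 7.59 in AdIGF1RKO, with both libraries numbered 3 below the other 4. The means were 10.3 ± 2.87 and 10.2 ± 2.57 (SD, n = 3), the closest of all 10 genes, and the log2 difference was 0.01 with a 95% interval from -0.61 to 0.63. Over the 6 libraries the Pearson correlation of log2 levels was 0.99 between Junb and Fos and -0.42 between Jun and Fos. These correlations describe 6 points that share library, depth and tissue makeup.

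Egr1, a zinc finger transcription factor induced through serum response factor, had 12.3, 20.2 and 2.18 scaled CPM in Flox and 10.7, 13.3 and 3.86 in AdIGF1RKO. As for Fos, both libraries numbered 3 were far below the rest, and the highest library was 9.27 times the lowest. The means were 11.6 ± 9.02 and 9.29 ± 4.88 (SD, n = 3), and the log2 difference was -0.05 with a 95% interval from -1.86 to 1.77. It was -0.50 with a muscle covariate and -0.67 with array quality weights, and passed in neither. Ier2, a small nuclear protein induced early by growth factors, had 12.9, 19.5 and 7.60 scaled CPM in Flox and 16.5, 15.2 and 7.15 in AdIGF1RKO. It was again lowest in the libraries numbered 3, over a smaller range of 2.73 times, with a log2 difference of -0.03 and a 95% interval from -1.01 to 0.95, and -0.29 with a muscle covariate and -0.26 with array quality weights.

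Dusp1, which encodes a phosphatase that switches MAP kinases off and is also induced by glucocorticoids, had the highest level of the 10 genes per length of transcript. It had 108, 134 and 75.8 scaled CPM in Flox and 114, 121 and 56.9 in AdIGF1RKO, lowest in both libraries numbered 3. The means were 106 ± 29.0 and 97.5 ± 35.3 (SD, n = 3), with a log2 difference of -0.15 and a 95% interval from -0.97 to 0.66. It was -0.36 with a muscle covariate and -0.35 with array quality weights, and passed in neither. Per 1000 bases of the longest coding transcript (GENCODE, build GRCm38), Dusp1 had 53.1 ± 14.6 scaled CPM in Flox (SD, n = 3), Jund 26.9 ± 2.91, Jun 16.4 ± 2.21 and Ier2 8.77 ± 3.92. Fos at 5.75 ± 4.02, Junb at 5.67 ± 1.59, Fosl2 at 4.36 ± 0.278, Atf3 at 3.27 ± 0.755 and Egr1 at 2.58 ± 2.01 followed on this scale per 1000 bases, and neighbours among these 5 genes lay within the larger of their SDs, except Fosl2 and Atf3. Fosb had 0.590 ± 0.420 on it, and which of its transcripts the reads came from was not analysed here.

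Atf3, a stress-induced factor of the ATF family that can pair with Jun, had a pattern of its own. It had 5.62, 8.22 and 5.64 scaled CPM in Flox and 7.25, 20.5 and 7.53 in AdIGF1RKO. AdIGF1RKO 2 was high, and the other 5 libraries lay between 5.62 and 8.22. The means were 6.49 ± 1.499 and 11.7 ± 7.55 (SD, n = 3), and the log2 difference was 0.63 (standard error 0.39). Without AdIGF1RKO 2 it was 0.18. AdIGF1RKO was the higher in all 3 same-numbered pairs, which the labels do not tie together, by log2 differences of 0.32, 1.22 and 0.36. Atf3 did not pass the limma fit that keeps the numbers as blocks (adjusted p = 0.914). AdIGF1RKO 2 was also the library with the most macrophage marker RNA. The 10 macrophage markers summed to 2860 scaled CPM there. They summed to 1607 and 1431 in the other AdIGF1RKO libraries and to between 1210 and 1889 in Flox. Csf1r, Mrc1 and Itgam among them were highest in Flox 1, and the rest in AdIGF1RKO 2. The part of these markers in the Atf3 value was not tested.

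**Figure D2:**
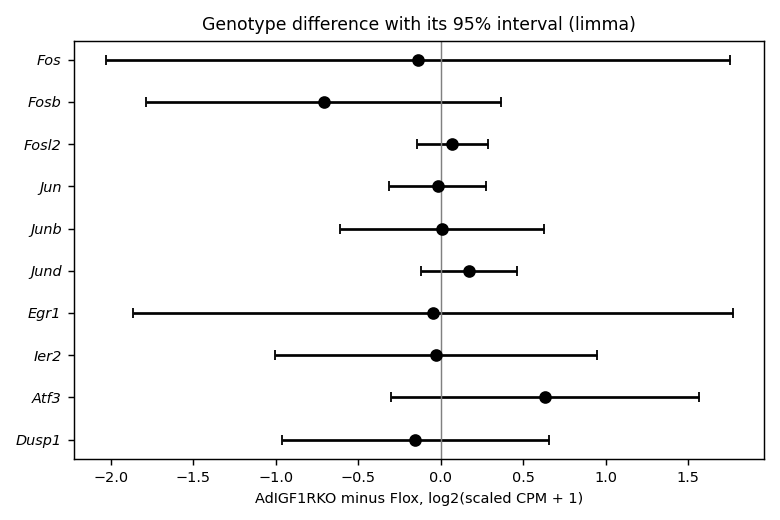
Difference AdIGF1RKO minus Flox of each gene on the log2(scaled CPM + 1) scale (horizontal axis), with points for the limma estimate and bars for its 95% interval. Every interval includes 0; those of Fosl2, Jun and Jund are narrow, and those of Fos and Egr1 reach below -1.8 and above 1.7.

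The libraries numbered 3 were then compared with the others, a comparison chosen after the values had been seen and given here as a description. For 6 of the 10 genes, Fos, Fosb, Junb, Egr1, Ier2 and Dusp1, both libraries numbered 3 lay below the other 4, against 15% of all genes tested. For 0 of the 10 were both above the other 4, against 16.8% of genes. The count was 5, without Fosb, with the values as deposited, against 2.36% of genes. It was 9, all but Atf3, with libraries scaled to equal sums, against 37.1% of genes. Fos in Flox 3 was at 13.8% of the lower of the other Flox libraries, and Fos in AdIGF1RKO 3 at 31.7% of the lower of the other AdIGF1RKO libraries. The same percentages were 17.7% and 36.04% for Egr1, and 23.1% and 49.5% for Fosb. The next count was made with median-ratio scaling only. For 9 of 12993 genes (0.0693%) each library numbered 3 was at 50% or less of both other libraries of its genotype. Fos, Fosb and Egr1 were 3 of these 9. The other 6, named after their values were seen, were Rasd1, AV039307, Zfp382, Gpr165, Irx1 and Akr1c18. Rasd1, a small GTPase gene induced by glucocorticoids, had 44.2, 44.8 and 11.3 scaled CPM in Flox and 51.2, 27.0 and 13.0 in AdIGF1RKO.

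These 2 libraries were also the richest in skeletal muscle RNA. The 14 muscle markers summed to 165528 scaled CPM in Flox 3 and 48402 in AdIGF1RKO 3, and to between 498 and 8587 in the other 4, and none of the 14 was at 0. Fos was at 2.34 scaled CPM in Flox 3, where the muscle markers took 13.2% of reads, and at 3.32 in AdIGF1RKO 3, at 4.77%. It was at 16.9 in Flox 1, at 0.914%, and at 17.1 in Flox 2, at 0.107%. In AdIGF1RKO 1 Fos was at 10.5, at 0.0543%, and in AdIGF1RKO 2 at 15.4, at 0.288%. Both libraries numbered 3 were the lowest for 6 of 10 macrophage, 4 of 8 fibroblast, 4 of 7 neutrophil and mast cell and 2 of 6 lymphocyte markers, against the 15% of all genes given above. They were the lowest for 1 of 10 adipocyte, 1 of 8 endothelial, 1 of 8 smooth muscle, 0 of 14 skeletal muscle and 0 of 1 mammary epithelium markers. The part of muscle RNA and of tissue makeup in the low levels was not tested, and in bulk tissue fewer cells of a type and less RNA per cell cannot be told apart.

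**Figure D3:**
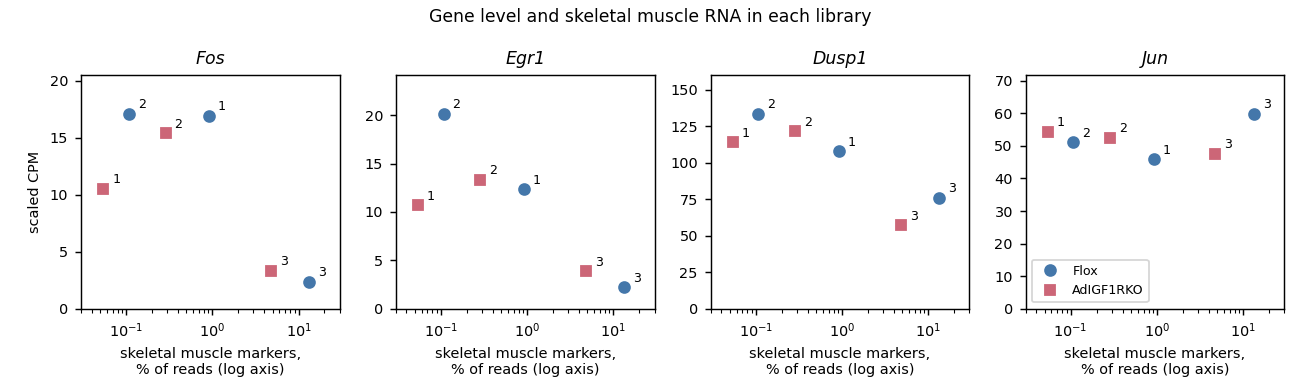
Level of Fos, Egr1, Dusp1 and Jun (vertical axis, scaled CPM) against the share of reads from 14 skeletal muscle markers (horizontal axis, percent, log scale) in each of the 6 libraries, circles for Flox and squares for AdIGF1RKO, with the library number. Fos, Egr1 and Dusp1 are low in the libraries numbered 3, at muscle shares of 4.77% and 13.2%, while Jun is highest in Flox 3.

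The wider set of immediate early genes gave no call between the genotypes either. Of 30 tested genes for regulators of transcription or mRNA decay, limma called 0 in either direction, 9 had a positive and 21 a negative log2 difference, and the median was -0.07. Ier5, a relative of Ier2, was at 8.34 ± 0.812 scaled CPM in Flox and at 9.82 ± 1.48 in AdIGF1RKO (SD, n = 3). Nr4a1, an orphan nuclear receptor gene, had 7.78, 15.5 and 39.3 in Flox and 7.29, 7.48 and 14.7 in AdIGF1RKO, and so was highest in Flox 3, opposite to Fos. Per1, a clock gene that glucocorticoids induce as they do Dusp1, had 36.1 ± 5.68 and 32.0 ± 4.64. Both libraries numbered 3 were the lowest for 13 of the 30 genes, against 15% of all genes tested. The count is given with median-ratio scaling only, and the share over all genes depends on the scaling, as given above. Among those 13, named after their values were seen, were Klf4, Btg2, Zfp36 and Csrnp1, with Csrnp1 at 5.96, 7.58 and 3.17 scaled CPM in Flox and 4.77, 5.92 and 4.10 in AdIGF1RKO.

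Of 26 tested immediate early genes for secreted or signalling proteins, limma again called 0 in either direction, with 13 positive, 13 negative and a median log2 difference of 0.01. Rgs2, which encodes an inhibitor of G protein signalling, had 93.9, 74.4 and 126 scaled CPM in Flox and 53.2, 45.2 and 70.1 in AdIGF1RKO. The AdIGF1RKO libraries were all lower, at a log2 difference of -0.79 (standard error 0.24), and Rgs2 did not pass limma (adjusted p = 0.998). Ccl2, a chemokine that attracts monocytes, had 11.4, 6.10 and 3.999 in Flox and 11.6, 26.2 and 14.9 in AdIGF1RKO. The groups did not overlap, and the level was highest in AdIGF1RKO 2 (log2 difference 1.21, standard error 0.41). Ccl2 did not pass limma either (adjusted p = 0.998). Cxcl1, a neutrophil chemokine, had 1.68 ± 0.912 and 3.20 ± 0.856 (SD, n = 3). Both libraries numbered 3 were the lowest for 12 of these 26 genes, against 15% of all genes tested, again with median-ratio scaling only.

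**Figure D4:**
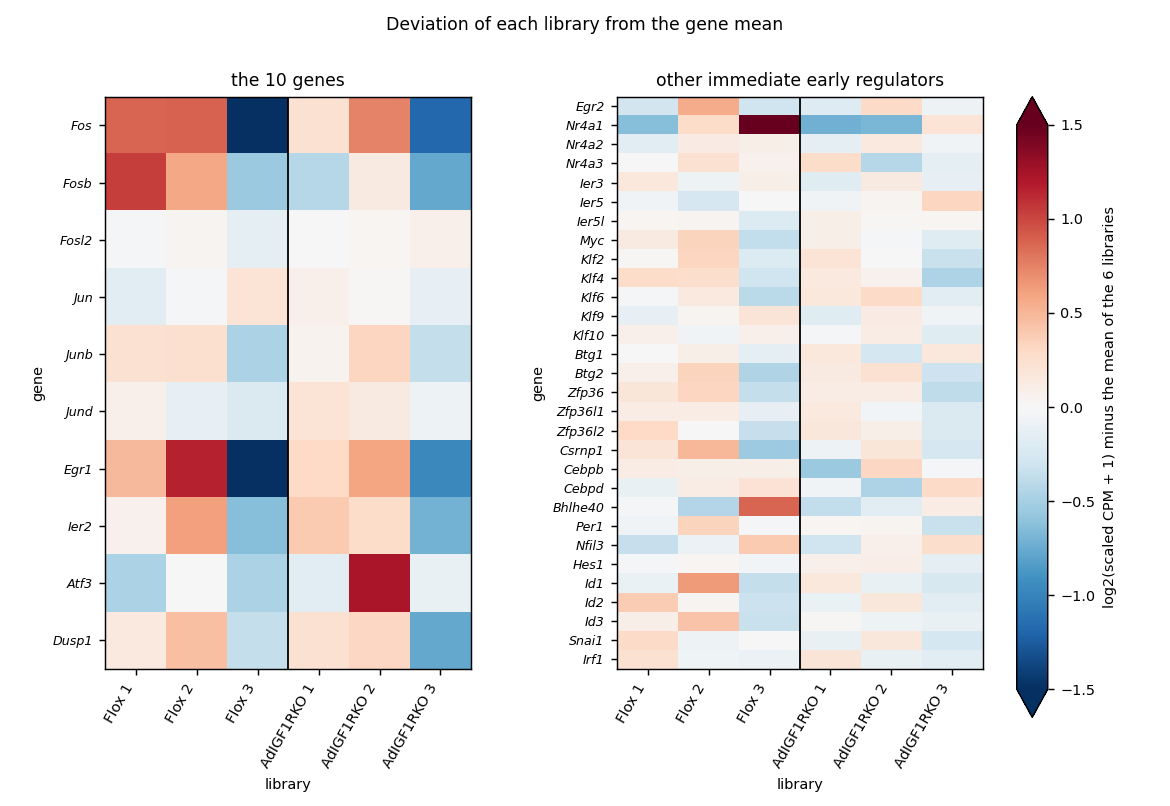
Log2(scaled CPM + 1) of each library minus the gene's mean over the 6 libraries (colour, red above and blue below the mean) for the 10 genes on the left and 30 other immediate early regulators on the right, with Flox before and AdIGF1RKO after the black line. The blue columns of Flox 3 and AdIGF1RKO 3 are deepest for Fos and Egr1 and paler for the other regulators, among which Nr4a1 and Bhlhe40 are red in Flox 3.

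The partners, kinases and cofactors around this response were read out next. Of 13 other AP-1 partners and relatives 7 were positive and 6 negative, with a median log2 difference of 0.04. They included Mafg with 33.0 ± 2.23 scaled CPM in Flox and 28.7 ± 3.47 in AdIGF1RKO (SD, n = 3), Maf with 66.4 ± 21.2 and 52.1 ± 7.13, and Batf2 with 1.98 ± 0.367 and 2.49 ± 0.519. The split by sign in this and the other lists depends on the scaling. With median-ratio scaling 44.8% of all genes tested were positive. With libraries scaled to equal sums 72.4% of all genes were positive, and their median was 0.09. On that scale 18 of the 30 regulators above and 14 of the 18 kinases below were positive. Of 12 genes for serum response factor, its cofactors, CREB and the CREB coactivators, 9 were negative, with a median of -0.04. Crtc2, a CREB coactivator that fasting signals bring to the nucleus, had 35.7, 36.9 and 38.6 scaled CPM in Flox and 33.0, 30.8 and 32.4 in AdIGF1RKO. Its AdIGF1RKO libraries were all lower (log2 difference -0.20, standard error 0.08), and it did not pass limma (adjusted p = 0.998). Srf itself had 19.4 ± 6.30 and 15.2 ± 1.90 and was highest in Flox 3, at 26.7, and Crtc1 had 6.79 ± 1.198 and 5.74 ± 0.548.

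MAP kinases and the kinases around them had 4 of 18 genes positive and a median log2 difference of -0.05. Rps6ka4, a kinase that phosphorylates CREB, was at 14.2 ± 3.05 scaled CPM in Flox and at 17.1 ± 0.817 in AdIGF1RKO, Map2k7, which activates the Jun kinases, had 38.1 ± 7.67 and 31.2 ± 2.95, and Rps6ka3 had 69.9 ± 1.71 and 81.0 ± 19.3 (SD, n = 3). The other MAP kinase phosphatases had 3 of 9 positive and a median of -0.05. Dusp9 had 1.03 ± 0.147 and 1.596 ± 0.420 and Dusp7 7.96 ± 0.783 and 9.25 ± 0.477, both without overlap, and Dusp8 had 5.89 ± 3.01 and 4.21 ± 1.279. ERK feedback genes had 7 of 9 positive and a median of 0.05, with Etv5 at 5.47 ± 1.01 and 4.53 ± 0.562, Etv1 at 2.84 ± 0.601 and 3.17 ± 0.0591, and Spred3 at 4.33 ± 0.921 and 3.82 ± 0.534. None of these genes passed the limma test.

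Textbook AP-1 targets had 4 of 7 positive and a median log2 difference of 0.17. Timp1, an inhibitor of matrix proteases, had 6.84, 5.87 and 5.62 scaled CPM in Flox and 7.37, 21.3 and 7.88 in AdIGF1RKO, so its peak lay in AdIGF1RKO 2, as for Atf3. Cd44, a receptor for hyaluronan, had 15.6, 11.2 and 11.2 and then 17.2, 29.1 and 13.4, again highest in AdIGF1RKO 2, and Plau had 65.7 ± 4.02 and 52.8 ± 12.9 (SD, n = 3). Neither Timp1, Cd44 nor Plau passed the limma test (adjusted p = 0.998 each). Of 14 heat shock genes, which mark another stress response, 14 were negative with a median of -0.20, and limma called 0. Their median was -0.36 on the deposited scale and -0.07, with 9 of 14 negative, with libraries scaled to equal sums. For 0 of the 14 were both libraries numbered 3 the lowest, against 15% of all genes tested. Hspa1b had 62.0, 54.3 and 114 scaled CPM in Flox and 80.1, 31.6 and 30.1 in AdIGF1RKO, Hspa1a had 56.7 ± 30.5 and 32.8 ± 21.8, and Hspb1 had 294 ± 100.3 and 217 ± 21.2, and the list was highest in Flox 3, where its median deviation from the gene means was 0.44 on the log2 scale.

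The genes whose profile over the 6 libraries was most like the mean of the 10 genes were Ifi206, Trim30d, Phf11b, Kng2, Piga, Pdia3, Alg12 and Hacd4, with Pearson correlations of log2 levels between 0.981 and 0.996. The 6 points share depth and tissue makeup, and among 12993 genes many profiles over 6 points will look alike. Each was low in both libraries numbered 3, but less so than Fos: Trim30d had 17.8, 18.4 and 12.3 scaled CPM in Flox and 16.6, 18.6 and 13.4 in AdIGF1RKO.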

How the data were processed

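The authors deposited 1 table of signal values for 14861 genes in 6 libraries of polyadenylated RNA, stranded per the labels' protocols, with the genome build GRCm39 per the submitters' processing notes. The table's name calls the values FPKM. Aligner, counting tool and annotation: not given in the sources used here. Within a rounding tolerance of 0.5 of a deposited unit, where 1 read was worth 12.2 to 25.5 units, 100% of the deposited values were a whole number of reads times a constant for each library (46.9% to 69.5% with the next best constant), so the signal is a scaled read count, not divided by length. The recovered reads, 60617147 to 70695527 per library, were divided by median-ratio size factors (0.731 to 1.17) and by the geometric mean of the library totals, and multiplied by 1000000, which gives scaled CPM. The 12993 genes with a mean of at least 1 entered a limma fit of log2(value + 1), with limma 3.58.1 in R 4.3.3 and a trend of variance on level, two-sided, with Benjamini-Hochberg adjustment over all genes and a threshold of 0.05. The fit understates changes of genes with low values. edgeR (version 4.0.16) and DESeq2 (version 1.42.0) were run on the recovered reads as alternatives, beside other scalings, filters and pseudocounts, array quality weights, a muscle covariate and fits without each library.

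The numbers 1 to 3 occur in both groups. Deviations from the group means correlated over genes at 0.35, 0.35 and 0.83 between same-numbered libraries. A fit with the replicate number as a block was made as an alternative. Deviations within a group cancel, so a deviation shared by the libraries numbered 3 also raises the correlations among the others. Flox 2 with AdIGF1RKO 1 correlated at 0.70 and Flox 1 with AdIGF1RKO 2 at 0.33, so the correlations do not tell numbers 1 and 2 apart. The block and the same-numbered pairs follow the numbers in the labels, not these correlations. The labels do not say whether a same-numbered pair shares a litter, cage or day, and p-values measure only the spread between these samples.

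The 10 genes and the other lists were chosen with earlier results of these data known. Besides the 10 genes, the text names the 3 genes with the smallest unadjusted p of each other list, the 8 genes most like the mean profile of the 10 and Igf1r, and says where a gene was chosen otherwise.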

Additional observations from a re-analysis of the deposited data

How the results depend on the processing

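Under 17 alternatives none of the 10 genes was called, and the lowest adjusted p of any of them was 0.724. Atf3, Fosb and Jund kept their direction in every alternative that gave a value; Fosb could not be fitted with a mean of at least 5. Each of the others changed sign in 1 or more alternatives, and the cause was not tested. Genes called over the whole table numbered 0 by limma on all 6 libraries, 0 by edgeR and 23 by DESeq2, and from 0 to 1 when each library was left out, the 1 being without Flox 1. Those at an unadjusted p under 0.05 numbered 385 by limma, 378 by edgeR and 494 by DESeq2. With the replicate number as a block limma called 0 genes (582 by the unadjusted p); the block put Atf3, 1 of the 10, under an unadjusted p of 0.05 and changed no call at an adjusted p.

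With the values as deposited the median over all genes was -0.17 and the log2 differences were -0.0879 for Fosl2 and -0.14 for Junb. With equal sums that median was 0.09, and they were 0.10 for Jun, 0.0398 for Egr1 and 0.0804 for Ier2. Array quality weights gave 0.0839 for Jun and -0.23 for Junb, and moved Fos to -0.95 and Egr1 to -0.67; the muscle covariate gave -0.12 for Junb, -0.58 for Fos and -0.50 for Egr1. Without both libraries numbered 3 they were 0.14 for Jun and -0.0443 for Junb. Junb was at -0.00336 by edgeR and -0.00194 by DESeq2. When each library was left out in turn, the log2 difference ran from -1.16 to -0.37 for Fosb, -0.95 to 0.42 for Fos, -0.85 to 0.52 for Egr1, -0.35 to 0.32 for Ier2, -0.37 to 0.19 for Dusp1, -0.23 to 0.19 for Junb and -0.11 to 0.082 for Jun. The median of the 10 genes ran from -0.29 without Flox 3 to 0.22 without AdIGF1RKO 3. Fosb had the fewest reads of the 10 genes, at 22 to 263 per library. Counting error was not set against the spread between libraries for each gene.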
